A study of Mus musculus with 6 samples.

Results

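The genes described here handle iron in macrophages, namely Tfrc, Fth1, Ftl1, Slc40a1, Slc11a1, Slc11a2, Aco1, Ireb2 and Hamp. The 9 were listed by name for their roles in uptake, storage, export and regulation, and 8 of them had a probe set among the 16387 named genes of the series. Ftl1, which encodes the ferritin light chain, had none in the table used and was not analysed here. RNA came from RAW264.7, an established mouse macrophage line grown from a virus-induced tumour, cultured for 48 h in serum-containing medium. The vector clone (clone 3) had been transfected with the empty expression vector, and the Ms4a8a clone (clone 8) with the same vector carrying an Ms4a8a cDNA. Cells of both clones had been selected with blasticidin. Each arm was 1 clone measured on 3 arrays numbered 1 to 3, so the transgene and the clone cannot be told apart, and the labels do not say whether separate cultures were used. Levels are on a log2 scale, where a step of 1 is a 2-fold change.

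Cells take up transferrin-bound iron through the transferrin receptor, store it in a ferritin shell of heavy and light chains, and release it through ferroportin, the only known iron exporter of mammals. Macrophages also recover iron from engulfed red cells by breaking down heme, so ferroportin is prominent in this lineage. The iron regulatory proteins bind hairpins in target mRNAs when iron is scarce: bound hairpins stabilise the transferrin receptor mRNA and block translation of ferritin and ferroportin. Hepcidin, a liver hormone, removes ferroportin from the cell surface. Arrays read mRNA only, so translation and protein turnover were not measured.

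The transgene and the macrophage markers were checked first. Ms4a8a read between 3.07 and 3.32 on the vector arrays and between 7.40 and 8.15 on the Ms4a8a arrays. The median of the macrophage marker list lay between 11.20 and 11.96 on the 6 arrays. The medians of the fibroblast, hepatocyte, lymphocyte and erythroid marker lists lay between 3.42 and 4.70. Levels within the macrophage list differed widely. Csf1r, Cd68 and Lyz2 lay above 12.6 on all 6 arrays, while Itgam read 6.2 to 9.4 and Adgre1 6.8 to 9.5. Of the 10 macrophage markers, Mertk, singled out after its values were seen, lay at the bottom of the scale on all 6 arrays (2.24 to 2.62). The number 3 arrays of both clones stood apart from numbers 1 and 2, and each result below is given by number. The F test of replicate number, in a limma model with the clone, called 30.1% of all genes at an adjusted p of 0.05.

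Tfrc, the transferrin receptor that carries transferrin-bound iron into the cell, was much lower on both number 3 arrays. Its level was 10.20, 10.42 and 7.03 on vector arrays 1, 2 and 3. On the Ms4a8a arrays it was 10.05, 10.41 and 6.62. The 4 arrays of numbers 1 and 2 lay within 0.37 of each other, and the number 3 arrays lay far below them in both clones. Against the mean of numbers 1 and 2, the number 3 level was 9.70-fold lower in the vector clone and 12.3-fold lower in the Ms4a8a clone, with log2 differences of -3.28 and -3.61. Averaged over the clones, Tfrc had the fifth lowest such difference of the 16387 genes (rank 5). Tfrc was included for this pattern, which was known from earlier work on these data, so the values are a description without a test. On the other arrays 90.6% to 93.0% of genes read below Tfrc, and on the number 3 arrays 59.1% and 55.3% did. These are bulk samples, so fewer cells with the transcript and less of it per cell cannot be told apart.

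The array carries 3 further probe sets named for the transferrin receptor among its control sets, which lie at the 5′ end, in the middle and at the 3′ end of the transcript. They were not used in choosing the gene, but they read the same RNA on the same arrays, so they are no further replicates. The 3′ set read 10.50, 10.74 and 7.40 on the vector arrays and 10.39, 10.76 and 6.92 on the Ms4a8a arrays. The number 3 differences were -3.22 and -3.65 for the 3′ set, -3.29 and -3.66 for the middle set, and -3.76 and -4.21 for the 5′ set, in the vector and Ms4a8a clones in that order. All 3 sets thus read low on both number 3 arrays, the 5′ set by the most.

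Signs of RNA integrity moved with number 3 as well. The 3′ minus 5′ difference of the transferrin receptor sets was between 0.83 and 0.90 on the arrays of numbers 1 and 2, and it was 1.39 and 1.46 on the number 3 arrays. For beta-actin (Actb) this difference was between 0.13 and 0.17 on the former and 0.62 and 0.45 on the latter. For pyruvate carboxylase (Pcx) it was between 0.33 and 0.50, and 0.91 and 0.86. For Gapdh, whose sets lie near the top of the scale, it was between -0.19 and -0.16, and -0.12 and -0.06. The difference was thus larger on number 3 in both clones for all 4 transcripts, by 0.05 and 0.11 for Gapdh and by 0.30 to 0.56 for the others. The 5′ and 3′ sets of Actb also lay near the top of the scale on numbers 1 and 2, at 14.14 to 14.35. On number 3 they read 13.23 to 13.85. The top of the scale may have narrowed the Actb difference on numbers 1 and 2, which was not tested.

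**Figure D1:**
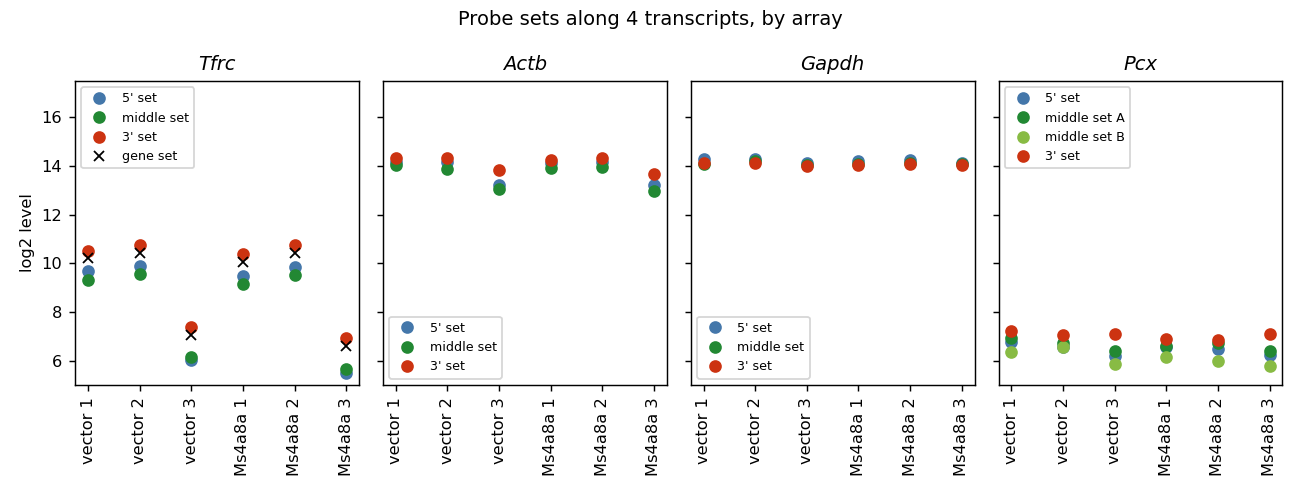
Log2 level (vertical axis) of probe sets along 4 transcripts on each of the 6 arrays (horizontal axis), with 1 point per probe set and array. All 4 Tfrc sets, including the gene's own set (crosses), lie more than 3 units lower on both number 3 arrays, while the Gapdh sets stay within 0.305 of each other.

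Proliferation genes were also low on number 3. They were listed because transferrin receptor levels are known to rise with cell growth, and with earlier results of these data known. Of 17 measured, 16 passed the F test of replicate number with number 3 as the lowest (15.5% of all genes did so), and Myc, named after its values were seen, did not pass (0.678). The list's median level was between 10.9 and 11.1 on the arrays of numbers 1 and 2, 9.85 on vector array 3 and 8.54 on Ms4a8a array 3. Thymidine kinase Tk1 had number 3 differences of -2.45 and -3.56 (limma F adjusted p = 0.00111), the ribonucleotide reductase subunits Rrm2 and Rrm1 had -1.55 and -2.98 (0.00605) and -1.86 and -2.66 (0.00112), and the replication helicase subunit Mcm4 had -1.56 and -2.93 (0.00549), each in the vector and Ms4a8a clones in that order. Macrophage markers moved the other way, with 6 of 10 passing and number 3 highest in all 6 (14.5% of all genes did so), among them Adgre1, which encodes F4/80 (2.48 and 2.12; 0.000394), the integrin subunit Itgam (2.06 and 1.66; 0.000683), the endotoxin co-receptor Cd14 (0.81 and 1.22; 0.00443) and the leukocyte phosphatase Ptprc (0.92 and 0.62; 0.00417). The part of growth state, RNA integrity or batch in the Tfrc values was not tested.

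The genes with the pattern most like that of Tfrc over the 6 arrays were Bzw1, Pole3, Gtf2h3, Ppp2r1b and Ccar1. Their Pearson correlations with Tfrc were between 0.99905 and 0.99961, ranked among the 2618 other genes at or above the 25th percentile of level whose range was at least 1. These correlations rest mainly on the gap between number 3 and the rest, and they say nothing of size: the number 3 differences of the 5 genes lay between -0.91 and -1.91, well short of that of Tfrc.

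The sequence upstream of Tfrc is shown because this gene carried the largest differences among the members. That of Aco1 is shown because it alone of the members other than Tfrc passed the F test of replicate number. Its level was lowest on number 3. Sequences are from RefSeq (GRCm38.p6), with 7 of the 9 members in the table and Slc40a1 and Slc11a2 not. Capitals mark matches, on either strand, to the CCAAT box (CCAAT), the GC box bound by Sp1 (GGGCGG), the cAMP response element core (TGACGT), the core bound by hypoxia-inducible factors (ACGTG) and the antioxidant response element bound by NRF2 (TGACNNNGC). The first line is chr16:32608646-32608895 on the plus strand, the 250 bases before the 5′-most annotated start of Tfrc. The second is a site of 30 bases at chr16:32608891-32608920 on the plus strand, shown for its closely spaced ACGTG and TGACGT matches. It begins 5 bases before that start and lies upstream of the other annotated start. The third is chr4:40143015-40143264 on the plus strand, the 250 bases before Aco1.
Tfrc upstream: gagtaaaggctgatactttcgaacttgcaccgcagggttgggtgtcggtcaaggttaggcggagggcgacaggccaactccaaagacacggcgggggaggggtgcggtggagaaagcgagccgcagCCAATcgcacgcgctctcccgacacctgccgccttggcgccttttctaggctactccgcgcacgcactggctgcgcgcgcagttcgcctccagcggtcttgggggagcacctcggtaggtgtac
Tfrc site: tgtACGTGcggaaggaagTGACGTagatcc
Aco1 upstream: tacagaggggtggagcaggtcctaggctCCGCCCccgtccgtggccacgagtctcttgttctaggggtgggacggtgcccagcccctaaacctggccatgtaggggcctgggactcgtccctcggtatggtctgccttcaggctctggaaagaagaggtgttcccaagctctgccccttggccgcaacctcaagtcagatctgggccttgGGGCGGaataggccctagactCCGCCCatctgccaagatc

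The Tfrc upstream window held 1 CCAAT match and none of the other 4 motifs, and the Tfrc site held 1 ACGTG and 1 TGACGT match, which did not overlap. The site was cut from the 250 bases before the other annotated Tfrc start. Outside the site, that window also held 1 GGGCGG match. The Aco1 window held 3 GGGCGG matches and no others. Among all 32851 upstream windows of 250 bases, CCAAT was found in 33.8%, GGGCGG in 32.7%, ACGTG in 16.6%, TGACNNNGC in 10.2% and TGACGT in 6.47%. These shares do not apply to the Tfrc site, which is shorter and was picked for its matches. A match describes the letters only, and no factor binding was measured.

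Slc11a1 and Slc11a2 encode transporters that move iron out of vesicles into the cytosol. Only their mRNA was read here, and whether RAW264.7 cells make a working Slc11a1 protein was not measured. Slc11a1 (Nramp1), which sits in the phagosome membrane of macrophages and is known for resistance to intracellular microbes, read 8.51, 8.56 and 8.68 on the vector arrays. On the Ms4a8a arrays it read 9.27, 8.98 and 9.06. All 3 Ms4a8a arrays lay above all 3 vector arrays, as they did for 3.89% of all genes. The difference between clones was 0.52 (SE 0.11, 95% interval 0.25 to 0.79, limma adjusted p = 0.767; with the replicate number as a block adjusted p = 0.0961), a 1.43-fold higher level that did not pass the threshold of 0.05.

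Slc11a2 (DMT1), the endosomal transporter that works downstream of the transferrin receptor, was nearly level across arrays. It read 7.59, 7.53 and 7.73 on the vector arrays and 7.66, 7.49 and 7.80 on the Ms4a8a arrays. The clones overlapped, and their difference was 0.03 (blocked 95% interval -0.15 to 0.21). Number 3 was the highest array in both clones, by 0.18 and 0.23 over the mean of the others (F adjusted p = 0.174). The receptor and the transporter of the same uptake route thus had number 3 differences of opposite sign, of which that of Slc11a2 did not pass.

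Fth1, the ferritin heavy chain that oxidises iron for storage, gave values at the top of the scale. It read 14.40, 14.40 and 14.26 on the vector arrays and 14.35, 14.40 and 14.26 on the Ms4a8a arrays. At most 3 named genes read higher on any array, since its rank was between 2 and 4. The columns of the table hold the same sorted values, so a gene with this rank has almost no room above it, and a rise in Fth1 could hardly show. The clones overlapped, with a difference of -0.02 (blocked 95% interval -0.20 to 0.16), and number 3 lay 0.14 and 0.11 below the mean of the other arrays (F adjusted p = 0.492). Fth1 also has pseudogene copies, whose part in the signal was not measured.

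Slc40a1 (ferroportin), the iron exporter, was lower in the Ms4a8a clone on every array, and the gap was widest at number 3. It read 9.18, 9.20 and 9.79 on the vector arrays. On the Ms4a8a arrays it read 8.62, 8.26 and 7.41. The clones did not overlap, as for 3.99% of all genes with Ms4a8a lower, and the difference was -0.56, -0.95 and -2.38 at numbers 1, 2 and 3. Over all arrays it was -1.30 (SE 0.35, 95% interval -2.16 to -0.44, a 2.46-fold lower level), with a limma adjusted p of 1.00 (unadjusted 0.0104) and a blocked adjusted p of 0.173. Without both number 3 arrays the blocked model gave a smaller difference that passed, a fall of 0.75 (95% interval -1.03 to -0.48, limma adjusted p = 0.0303), in a fit that called 2.65% of all genes. Without the block, numbers 1 and 2 alone gave an adjusted p of 0.0771.

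**Figure D2:**
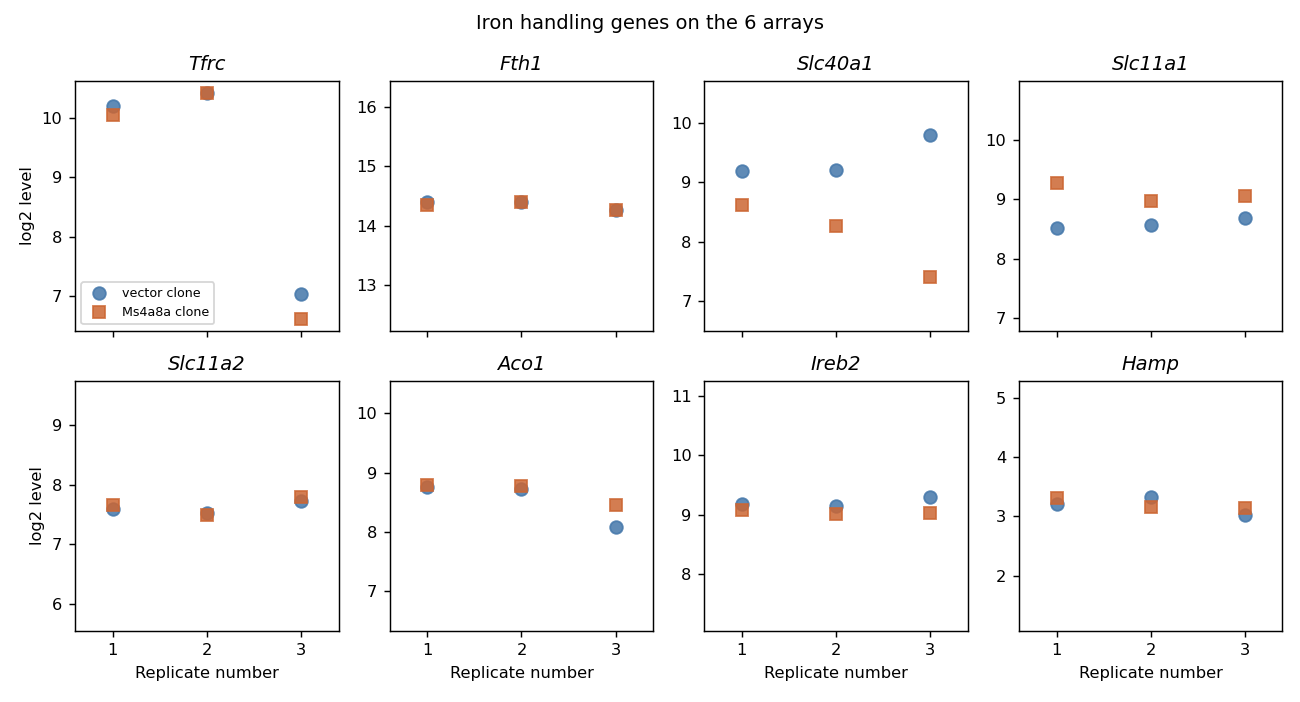
Log2 level (vertical axis) by replicate number (horizontal axis) for the 8 measured iron handling genes, with 1 point per array and the clones by colour and shape. The vertical axes span about the same number of log2 units around different centres. Tfrc is low on number 3 in both clones, and Slc40a1 parts between the clones at number 3.

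At number 3 the clones went opposite ways for Slc40a1. The vector array lay 0.60 above the mean of its numbers 1 and 2, and the Ms4a8a array lay 1.03 below, which is a change in the clone difference of -1.63. A change at least as large, in either direction, was found for 46 genes, Slc40a1 included. Going beyond both other arrays in opposite directions was frequent, at 12.4% of all genes, and Slc40a1 was the only such member of 8. With at least 0.5 in each direction, a limit chosen after the values were seen, it was 12 of 16387 genes (0.0732%). With 1 array per clone at number 3 this difference has no replicate and was not tested. Slc40a1 and Tfrc, which act at opposite ends of iron flow, therefore shared a low number 3 value in the Ms4a8a clone but not in the vector clone.

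**Figure D3:**
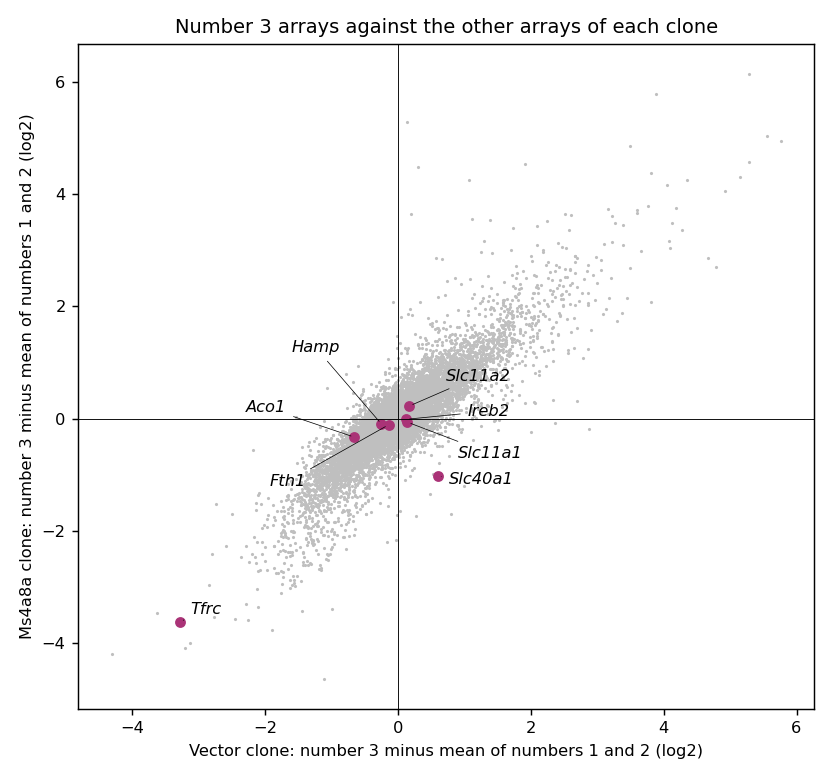
Number 3 level minus the mean of numbers 1 and 2, in log2 units, in the vector clone (horizontal axis) and the Ms4a8a clone (vertical axis), with a grey point per named gene and the iron handling genes in purple. Tfrc lies at the low end in both clones, at -3.28 and -3.61, and Slc40a1 lies off the main cloud at 0.60 and -1.03.

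Hamp, which encodes hepcidin, lay near the bottom of the scale. It read 3.21, 3.33 and 3.02 on the vector arrays and 3.31, 3.15 and 3.13 on the Ms4a8a arrays, with between 8.67% and 15.4% of genes below it. The clones overlapped (difference 0.01, blocked 95% interval -0.21 to 0.23). No detection call was used, so this is not read as absence. The closely related Hamp2, named after its values were seen, read between 6.25 and 6.77.

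Aco1 and Ireb2 encode the iron regulatory proteins, and Aco1 doubles as cytosolic aconitase when it holds an iron-sulfur cluster. Aco1 read 8.75, 8.73 and 8.09 on the vector arrays and 8.79, 8.77 and 8.45 on the Ms4a8a arrays. It differed between replicate numbers (limma F adjusted p = 0.0311), with number 3 differences of -0.65 and -0.33 and numbers 1 and 2 within 0.06 of each other over both clones. It was the 1 of 7 members other than Tfrc that passed this test, against 30.1% of all genes. The call rested on several arrays, since its adjusted p was 0.0629, 0.0841 and 0.112 when vector array 1, 2 or 3 was left out and 0.0628 when Ms4a8a array 2 was. The clones overlapped, with a difference of 0.14 (blocked 95% interval -0.09 to 0.38).

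Ireb2 read 9.18, 9.15 and 9.29 on the vector arrays and 9.07, 9.01 and 9.03 on the Ms4a8a arrays. The clones did not overlap, as for 3.99% of all genes with Ms4a8a lower. The difference was only -0.17 (blocked 95% interval -0.36 to 0.02, limma adjusted p = 1.00, blocked 0.421). Its number 3 differences were 0.13 and -0.01 (F adjusted p = 0.805). The 2 regulatory proteins, which bind the same kind of hairpin, thus had number 3 means of 8.27 for Aco1 against 8.77 and 8.75 at numbers 1 and 2, and 9.16 for Ireb2 against 9.13 and 9.08.

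No member passed for the clone difference over all genes. The count was 0 of 8 in the limma model without the block, which called 0.0427% of all genes, and 0 of 8 with the block, which called 0.909%. In each model 2 members, Slc40a1 and Slc11a1, had an unadjusted p under 0.05, as 3.20% of all genes had without the block and 13.3% with it. The median difference was -0.004 over the 8 members and -0.005 over all genes, with 4 members positive and 4 negative. Tfrc differed by -0.19 between clones (blocked 95% interval -0.44 to 0.05, blocked adjusted p = 0.486). Its difference was -0.15, -0.01 and -0.42 at the 3 numbers, small beside its number 3 values, and without the block its interval ran from -3.54 to 3.16.

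**Figure D4:**
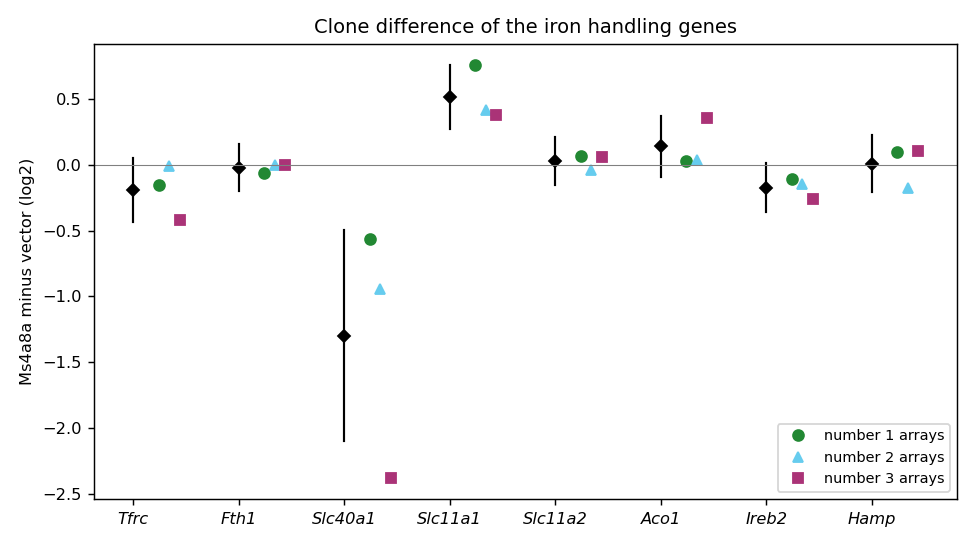
Ms4a8a minus vector difference in log2 units (vertical axis) for the 8 measured genes (horizontal axis). Black diamonds and bars are the mean and 95% interval of the limma model with the replicate block, and coloured points are the differences at each replicate number. The intervals of Slc40a1 and Slc11a1 lie off 0, though neither gene passed after adjustment over all genes.

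Apart from Tfrc, whose low number 3 values were known when it was included, number 3 was the lowest array of both clones for 3 of 7 members, against 33.1% of all genes. These were Fth1, Aco1 and Hamp, with differences from -0.10 to -0.65. It was the highest of both for 1 of the 7, Slc11a2, against 26.3%. None of the 7 lay at least 1 log2 unit lower on number 3 in both clones (0 of 7), as 2.80% of all genes did. The median number 3 difference was -0.13 over the 7 members and -0.03 over all genes.

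Other genes of the uptake routes gave a single call between clones. Of 17 measured, Slc39a14 (ZIP14), a zinc transporter that also carries free iron, fell once replicate number was a block. The other 16 did not pass in this fit, which called 0.909% of all genes. Slc39a14 read 8.26, 8.35 and 7.76 on the vector arrays and 7.63, 7.80 and 6.82 on the Ms4a8a arrays. Each Ms4a8a array lay below the vector array of the same number, and the clones overlapped. The fall was 0.71 (blocked 95% interval -0.95 to -0.47, limma blocked adjusted p = 0.0455; without the block 1.00). The blocked call was lost without both arrays of number 1 (0.103) or number 2 (0.0878). It held without those of number 3 (0.0245), in a fit that called 2.65% of all genes. Without number 3 and without the block, the adjusted p of Slc39a14 was 0.0685. With array weights in place of the block it did not pass (0.190). By replicate number, 5 of the 17 passed the F test, near the 30.1% of all genes, 2 with number 3 lowest (15.5% of all genes) and 3 with it highest (14.5%). Slc39a14 itself was among those lowest, with number 3 differences of -0.55 and -0.89 (limma F adjusted p = 0.00827). The endocytic receptor Lrp1, which clears hemopexin-bound heme, was higher on number 3 by 1.88 and 1.49 (F adjusted p = 0.00152), the endosomal channel Mcoln1 was higher by 0.83 and 0.92 (0.00162), and Hfe, a partner of the transferrin receptor, had differences of -0.42 and -0.66 (0.00950).

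In cytosolic iron delivery, ferritin turnover and cluster assembly, 4 of 13 measured genes passed the F test, near the 30.1% of all genes, 3 with number 3 lowest and 1 highest, and none passed between clones. The cluster assembly genes Ciao2a, Nubp2 and Ciapin1 had number 3 differences of -0.81 and -0.86 (F adjusted p = 0.00189), -0.67 and -0.49 (0.00967) and -0.58 and -0.29 (0.0459). In human cells Ciao2a is known to act on the Aco1 protein. Pcbp2, an iron chaperone, was higher by 0.60 and 0.69 (0.00434). In the list of export and the hepcidin axis, 3 of 12 passed (30.1% of all genes), all with number 3 highest (14.5%), and none passed between clones. They were Bach1, a heme-sensing repressor (1.12 and 1.00; 0.00196), Smad4, a mediator of hepcidin induction (0.91 and 0.84; 0.00154), and Nfe2l2, which encodes the transcription factor NRF2 (0.62 and 0.55; 0.00508).

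NRF2 target genes were listed because ferritin and ferroportin are among the factor's known targets, and with earlier results of these data known. Of 11 measured, 8 passed the F test (30.1% of all genes), 7 with number 3 lowest (15.5%) and 1 highest (14.5%), and none passed between clones. The 1 with number 3 highest was Osgin1, named after its values were seen, with differences of 0.99 and 1.14. The number 3 differences were -2.29 and -2.27 for the glutathione synthesis subunit Gclm (F adjusted p = 0.000278), -1.60 and -2.60 for the quinone reductase Nqo1 (0.00273), -1.66 and -1.35 for glutathione reductase Gsr (0.000647) and -1.30 and -1.35 for sulfiredoxin Srxn1 (0.000557). Fth1 and Slc40a1 did not pass that test. Slc40a1 had a difference of 0.60 on vector array 3 and of -1.03 on Ms4a8a array 3. Fth1, at the top of the scale, had -0.14 on vector array 3 and -0.11 on Ms4a8a array 3. A part of NRF2 in these values was not tested. The mRNA of NRF2 itself was higher on number 3, as given above.

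Of 16 measured heme genes, 8 passed the F test (30.1% of all genes), 4 with number 3 lowest (15.5%) and 3 highest (14.5%), and none passed between clones. Fech, which inserts iron into the porphyrin ring, had number 3 differences of -0.68 and -0.69 (F adjusted p = 0.00320). Ppox, the enzyme 1 step before, was higher by 0.98 and 0.99 (0.00123), and the biliverdin reductase Blvra was higher by 0.98 and 0.61 (0.00921). Hmox1, the heme oxygenase that frees iron from heme, read 9.97, 10.82 and 10.25 on the vector arrays and 10.14, 10.62 and 10.54 on the Ms4a8a arrays. It was lowest on number 1 and highest on number 2 in both clones (0.0317), so its pattern by number was not that of Tfrc.

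Of 12 measured genes of mitochondrial iron import and iron-sulfur clusters, 6 passed the F test (30.1% of all genes), 1 with number 3 lowest (15.5%) and 5 highest (14.5%), and none passed between clones. Lyrm4, a subunit of the cluster-building desulfurase complex, had number 3 differences of -1.52 and -1.47 (F adjusted p = 0.000444). The iron importers Slc25a37 and Slc25a28 were higher by 1.18 and 1.10 (0.000886) and 0.61 and 0.47 (0.00982), and the cochaperone Hscb by 1.08 and 1.29 (0.000925). Mitochondrial importers thus read higher on the arrays where the transferrin receptor read lowest. Among the marker lists of other cell types, 4 of 20 genes passed (30.1% of all genes), namely Epor, Trf, Alb and Cd3e, the largest difference being that of transferrin (Trf), higher on number 3 by 0.73 and 0.44 (0.0122).

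**Figure D5:**
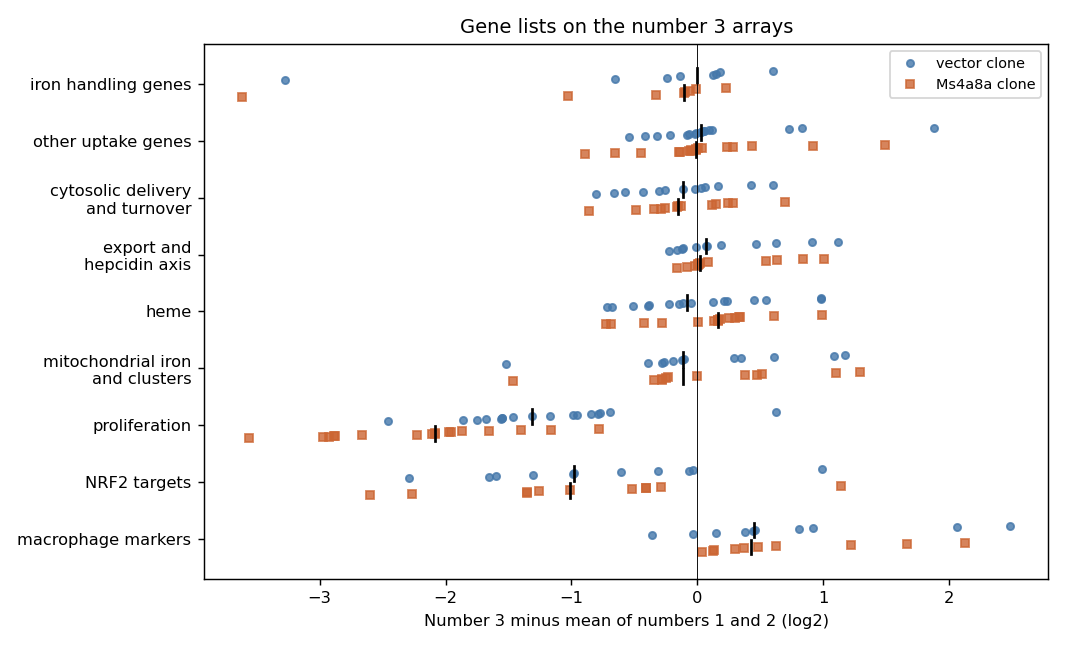
Number 3 minus the mean of numbers 1 and 2 in log2 units (horizontal axis) for each measured gene of 9 lists (vertical axis), with circles for the vector clone, squares for the Ms4a8a clone and bars at the medians. Proliferation genes and NRF2 targets lie mostly to the left and macrophage markers to the right. The iron lists centre near 0 with Tfrc far to the left.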

How the data were processed

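The authors' deposited values, on a log2 scale, give each probe set 1 level per array. Once sorted, the 6 columns were identical (largest difference 0), as after quantile normalisation. The summary method and its software are not given in the sources used here. Of 17370 probe sets, 16387 carried 1 symbol by the platform's annotation, and 1773 of these symbols were updated through RefSeq gene IDs. The number of arrays limits the precision.

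The clone difference was fitted with limma 3.58.1 in R 4.3.3 (lmFit, eBayes) on all named genes, with two-sided p-values adjusted over all of them (Benjamini-Hochberg) and a threshold of 0.05. Replicate number was tested by an F test with the clone in the model. The fits were also run on simulated arrays with known changes and independent noise. That run checks the code and cannot show whether the real arrays are independent. The spread behind the p-values is that between arrays and may be only technical.

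Deviations from the clone means correlated between arrays of one number (correlations 0.709, 0.809 and 0.865 for numbers 1, 2 and 3, all above the limit of 0.1), and the source names exchange numbers 1 and 2 against the titles in both clones alike, which leaves the pairs as they are. Numbers here are those of the titles, and values with the replicate block are given where they bear on a call. The exchanged pairs also correlated, at 0.713 for vector array 1 with Ms4a8a array 2 and 0.617 for vector array 2 with Ms4a8a array 1. Since number 3 stood apart in both clones, the check cannot tell which arrays of numbers 1 and 2 belong together.

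All members are named. From each other list up to 4 genes were named, those past the clone test first and then those past the F test, by size. The lists cover further uptake, cytosolic delivery and turnover, export and hepcidin, heme, mitochondrial iron, proliferation, NRF2 targets, and markers of macrophages, erythroid cells, hepatocytes, fibroblasts and lymphocytes. Members and lists were chosen with earlier results of these data known. Alternatives were the block, each array or number left out, a filter on low levels, array weights and a variance trend.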

Additional observations from a re-analysis of the deposited data

Results flagged for a closer look

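Slc40a1 moved in opposite directions on the number 3 arrays of the clones, against the mean of numbers 1 and 2. The vector clone gave 0.60 and the Ms4a8a clone gave -1.03 (log2). Both differences go beyond the other 2 arrays of the clone. The difference between them was not tested, since there was 1 array per clone at number 3. In groups of 3 arrays no outlying array was looked for.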

How the results depend on the processing

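The count of genes called between clones was 7. It was 149 with the replicate block, 47 with array weights, 147 for numbers 1 and 2 alone without the block (chosen after seeing the data), and 101, 104 and 434 with the block and without both arrays of number 1, 2 or 3. Leaving out 1 array gave 0 to 8, with 330, 783 and 447 genes at an unadjusted p under 0.05 in the limma fits with a count of 0 (without vector array 1, vector array 3 and Ms4a8a array 2). The count of 4938 for replicate number ranged from 3608 to 4929 with 1 array left out.

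Of the members, Slc40a1 passed under 1 of 14 alternatives, with the replicate block and without both arrays of number 3 (-0.75), and was negative throughout, while Slc11a1 was positive throughout. With 1 array left out, the difference ran from -1.28 to 1.01 for Tfrc, -0.065 to 0.018 for Fth1, -0.045 to 0.11 for Slc11a2, -0.074 to 0.26 for Aco1 and -0.071 to 0.082 for Hamp. These 5 turned sign there and were uncalled throughout. Removing 1 array leaves the number 3 arrays unbalanced between clones. Hamp was also -0.033 with the block and without number 1, and -0.039 without number 3, with or without the block. Over all 6 arrays the replicate block changed no member's call, and without number 3 it decided that of Slc40a1. Levels near the top (Fth1) or bottom (Hamp) of the scale limit what can show.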
